A study of Mus musculus with 35 samples.

Results

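The display of antigen by MHC class II molecules was followed in mouse fat through 7 genes: H2-Aa, H2-Ab1, H2-Eb1, H2-DMa, H2-DMb1, Cd74 and Ciita. The genes were chosen as a named list and found by symbol per the authors' deposited table of mRNA, which holds 18947 genes, and all 7 were measured. That table compares interscapular brown adipose tissue (iBAT) with epididymal white adipose tissue (eWAT), with 4 libraries from each. Both came from untreated male C57BL/6J mice of 15 weeks and from whole, flash-frozen depots, so every cell type of the depot contributed RNA. Whether the 4 libraries of a depot stem from 4 different animals is not labelled, so the p-values speak only for the spread among these libraries, which may be technical. The series has 35 samples in all, and the 27 Argonaute-CLIP and miRNA samples were not analysed here.

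MHC class II molecules display peptides from taken-up protein to CD4+ T cells. The displayed molecule pairs an alpha chain with a beta chain, H2-Aa with H2-Ab1 in I-A, while H2-Eb1 is the beta chain of I-E. C57BL/6 mice carry no functional alpha chain for I-E. Cd74, the invariant chain, holds the groove shut until the molecule reaches an endosome, where the H2-DM pair (H2-DMa with H2-DMb1 or its near copy H2-DMb2) exchanges the invariant chain's remnant for peptide. Ciita is the coactivator that switches on all of these genes. Dendritic cells, B cells and macrophages are the usual carriers, and adipocytes have been described as carriers too.

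The table gives no value per library, so each gene is described by 3 deposited values: a base mean, which is its normalized count averaged over all samples, a log2 fold change of iBAT against eWAT with its standard error (SE), and a p-value adjusted over all genes. Negative fold changes mean lower in iBAT. The header does not state that direction, which was read from the authors' deposited table itself. The brown fat genes Ucp1 (15.87) and Cidea (9.58) have positive log2 fold changes per the authors' deposited table. Wt1 (-6.80), a gene of visceral fat and mesothelium, and Lep (-2.77) have negative ones. A gene is called where the adjusted p is under 0.05. Base means grow with transcript length and are not compared between genes.

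The promoters are shown because the class II genes share a control module in which Ciita is held by factors bound to DNA. Those factors are the RFX complex and CREB on the X box and NF-Y on the Y box, whose core reads ATTGG. RefSeq promoter windows of GRCm38.p6, from 250 bases before to 50 after the start, matched 4 of the 7 genes: H2-Aa, H2-Eb1, H2-DMb1 and H2-DMa. The genes not matched are H2-Ab1, Cd74 and Ciita. Stretches of 80 bases upstream of the start follow, 5′ to 3′ on each gene's strand, with H2-DMb2 beside its near copy. Capitals mark, on the gene's strand, ATTGG and, before it, either AAC and TGATG with 3 bases between them (an X box type) or TGACGTCA (the palindrome bound by CREB).
H2-Aa (chr17:34287838-34287917, minus strand): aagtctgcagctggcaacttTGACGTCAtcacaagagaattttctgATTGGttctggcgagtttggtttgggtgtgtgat
H2-Eb1 (chr17:34305758-34305837, plus strand): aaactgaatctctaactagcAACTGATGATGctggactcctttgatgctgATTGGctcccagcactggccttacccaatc
H2-DMb1 (chr17:34153079-34153158, plus strand): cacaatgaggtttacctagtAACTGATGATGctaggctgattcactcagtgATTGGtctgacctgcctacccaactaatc
H2-DMb2 (chr17:34145108-34145187, plus strand): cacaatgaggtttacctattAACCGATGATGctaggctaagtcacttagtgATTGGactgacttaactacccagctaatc

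In each stretch the Y box core follows the upstream motif at a like distance. The bases between them number 18 in H2-Aa, 19 in H2-Eb1, 20 in H2-DMb1 and 20 in H2-DMb2. ATTGG begins 48 bases before the start in H2-Aa, 59 in H2-Eb1 and 61 in H2-DMb1. On either strand, 37.4% of all 32851 windows hold ATTGG, 0.615% hold the X box type and 1.79% hold TGACGTCA. The X box type followed within 40 bases by ATTGG on the gene's strand is in 5 windows, which belong to H2-Eb1, H2-DMb1, H2-DMb2, H2-Ob and 1700048F04Rik. The X box letters were chosen after these promoters had been read, so this count describes them and tests nothing. H2-DMa has 2 listed windows, neither of which holds the X box type or TGACGTCA. H2-DMb1 and H2-DMb2 have the same base at 70 of the 80 promoter positions shown. Their transcripts were not compared here, and whether reads of these near copies were split between them is not known.

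All 7 genes were lower in iBAT per the authors' deposited table, against a background of 27.1% of all genes called lower and 20.9% called higher. Their median log2 fold change was -2.19, while the median over all genes was -0.10 per the authors' deposited table. Among the 10360 genes with a base mean within the range of the 7, 26.1% were called lower and the median was 0.07, from the authors' deposited table. With a size of at least 1 on the log2 scale also required, all 7 were still lower, against 19.5% of all genes per the authors' deposited table. In whole tissue, fewer cells that carry class II and less RNA per cell cannot be told apart.

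The classical chains that present peptide were lower in iBAT by near-equal amounts. H2-Aa (ENSMUSG00000036594, GRCm38 chromosome 17, 34282744 to 34287823), the I-A alpha chain, had a base mean of 8096 and a log2 fold change of -2.18 ± 0.31 (SE; adjusted p = 6.74e-12) per the authors' deposited table. That is 4.53-fold lower in iBAT, with a 95% interval from 2.96 to 6.92, computed from the authors' deposited table. Its partner H2-Ab1 (ENSMUSG00000073421, chromosome 17, 34263227 to 34269418) had a base mean of 6671 and stood at -2.27 ± 0.32 (adjusted p = 3.60e-12) per the authors' deposited table, a 4.83-fold difference (3.11 to 7.50). The 2 chains of I-A thus differed between the depots by less than 1 SE from each other. H2-Eb1 (ENSMUSG00000060586, chromosome 17, 34305867 to 34316674), the I-E beta chain, had a base mean of 6405 and stood at -2.14 ± 0.35 (adjusted p = 1.04e-09) per the authors' deposited table, or 4.40-fold lower (2.75 to 7.04). Its transcript was thus measured, and lower in iBAT, in a strain whose cells do not display I-E.

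Cd74 (ENSMUSG00000024610, chromosome 18, 60803849 to 60812652), the invariant chain, had a base mean of 15455. Its log2 fold change was -2.19 ± 0.36 (adjusted p = 1.13e-09) per the authors' deposited table, or 4.58-fold lower in iBAT (2.82 to 7.44). That value lies between those of H2-Aa and H2-Ab1.

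The peptide exchange genes had the most negative values of the 7. H2-DMb1 (ENSMUSG00000079547, chromosome 17, 34153191 to 34160229; base mean 868.0) stood at -2.64 ± 0.33 (adjusted p = 1.25e-15) per the authors' deposited table, 6.24-fold lower in iBAT (4.01 to 9.73). H2-DMa (ENSMUSG00000037649, chromosome 17, 34119693 to 34139101; base mean 748.4) stood at -2.35 ± 0.34 (adjusted p = 5.59e-12) per the authors' deposited table, 5.10-fold lower (3.22 to 8.06). The RefSeq span of H2-DMa overlaps that of Brd2, a chromatin reader, which was not called (0.29 ± 0.13, adjusted p = 0.0543) per the authors' deposited table. The 6 genes other than Ciita spanned 0.51 on the log2 scale, from -2.64 to -2.14, with SEs between 0.31 and 0.36 per the authors' deposited table. Every 2 of these 6 genes have intervals that overlap, so their order is not resolved.

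Ciita (ENSMUSG00000022504, chromosome 16, 10480014 to 10531064), the coactivator of the other 6, was the member with the smallest difference. Its base mean was 209.8 and its log2 fold change -1.13 ± 0.17 (adjusted p = 3.03e-10) per the authors' deposited table, or 2.18-fold lower in iBAT (1.73 to 2.76). Of the other 6 genes, 1, H2-Eb1, has a 95% interval that overlaps that of Ciita, from -1.47 to -0.79. The difference between Ciita and the others was not tested, since values of the same libraries vary together and the table does not give how. Of all genes per the authors' deposited table, 19.1% had a fold change below that of Ciita, against 7.23% for H2-DMb1 and 9.75% for H2-Eb1.

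**Figure D1:**
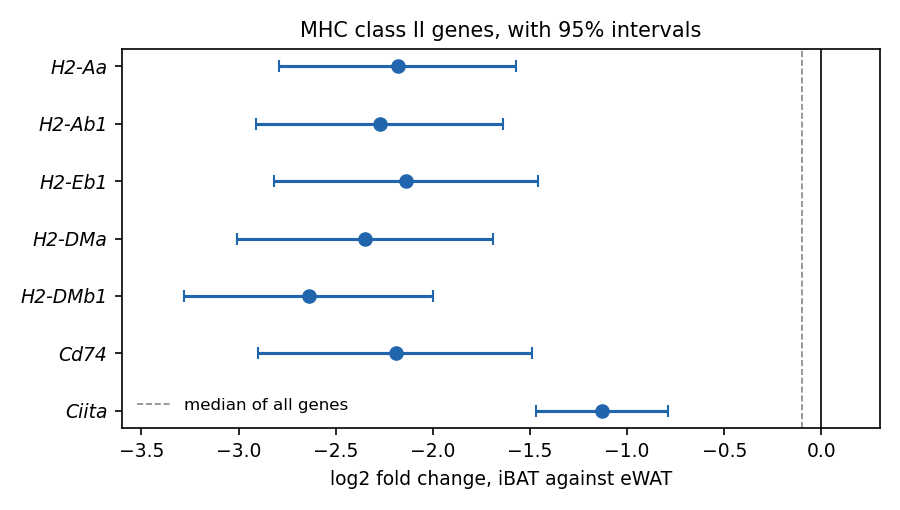
Log2 fold change of iBAT against eWAT (x axis) for the 7 MHC class II genes, as points with 95% intervals from the deposited standard errors; the dashed line is the median of all genes (-0.10). The points of 6 genes lie between -2.64 and -2.14 and that of Ciita at -1.13, all with intervals below 0.

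**Figure D2:**
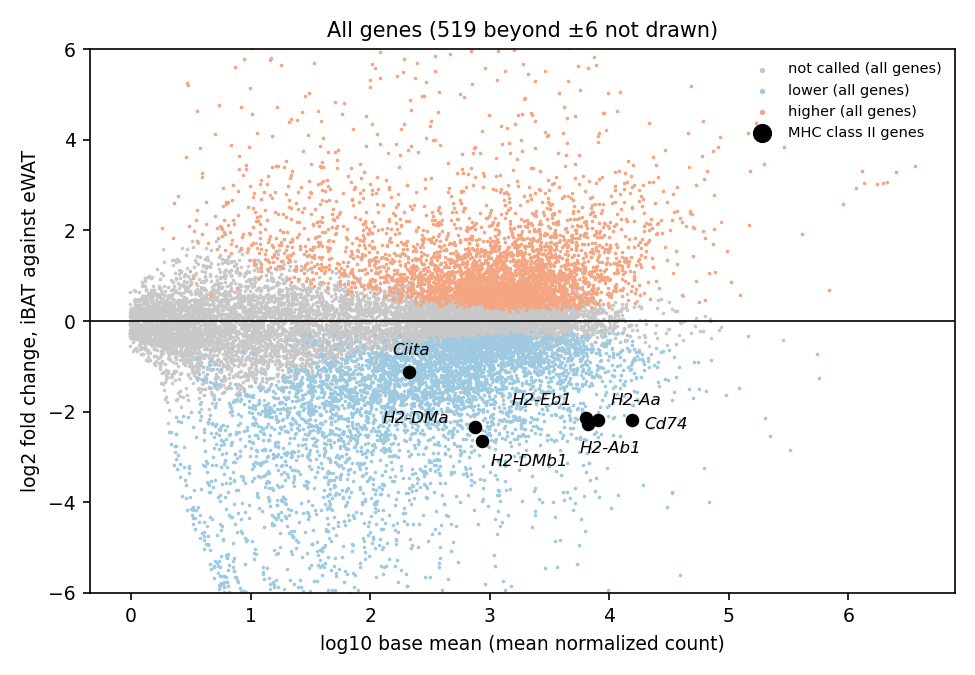
Log2 fold change of iBAT against eWAT (y axis) against the log10 base mean (x axis) for all genes, coloured by call, with the 7 MHC class II genes in black; 519 genes with a fold change beyond 6 in size are not drawn. The black points lie among the genes called lower, with base means from 209.8 (Ciita) to 15455 (Cd74).

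Of 4 remaining class II genes 3 were lower in iBAT, beside 27.1% of all genes, and 1 was not called (median -1.43) per the authors' deposited table. H2-DMb2, the other H2-DM beta chain, was lower in iBAT at -2.16 ± 0.44 (adjusted p = 8.70e-07) per the authors' deposited table. H2-Oa and H2-Ob form H2-DO, a partner that restrains H2-DM, mainly in B cells. H2-Oa was lower at -2.49 ± 0.63 (adjusted p = 4.70e-05), from a base mean of 23.7, and H2-Ob at -0.69 ± 0.31 (adjusted p = 0.0387) per the authors' deposited table. The call of H2-Ob was lost under 5 of the 6 alternative settings, with an adjusted p of 0.0570 from fold change over SE. H2-Eb2 had a base mean of 4.7 and was not called (-0.05 ± 0.69, adjusted p = 0.941) per the authors' deposited table.

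Genes that act on the class II molecule in endosomes did not move as 1 group. Of 8 measured, 4 were lower in iBAT, beside 27.1% of all genes. Of the others 1 was higher and 3 were not called (median of the 8 -0.63) per the authors' deposited table. Ctss, the cathepsin that trims the invariant chain in professional presenting cells, was lower at -2.08 ± 0.29 (adjusted p = 9.22e-13) per the authors' deposited table. Ctsl, the cathepsin that does so in thymic epithelium, stood at -1.75 ± 0.24 per the authors' deposited table. March1, a ubiquitin ligase that removes class II from the surface, was lower at -1.35 ± 0.28, and the asparaginyl endopeptidase gene Lgmn at -1.05 ± 0.20, per the authors' deposited table. Sppl2a, the membrane protease that clears the last fragment of Cd74, was the exception, higher in iBAT at 1.03 ± 0.26 (adjusted p = 1.96e-04) per the authors' deposited table. The general lysosomal proteases Ctsb (-0.22), Ctsd (0.06) and Ctsz (0.07) were not called per the authors' deposited table.

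None of the DNA-binding factors on which Ciita sits was called lower in iBAT. Of 7 measured, 2 were higher and 5 not called (median 0.05) per the authors' deposited table. Among all genes 27.1% were called lower and 20.9% higher, and counts over 7 genes were not tested against these shares. At an unadjusted p under 0.05, 1 (Rfxap) would count as lower and the 2 as higher. Nfyc, a subunit of NF-Y, was higher in iBAT at 1.47 ± 0.14, and Rfxank, a subunit of the RFX complex, at 0.85 ± 0.21, per the authors' deposited table. Rfx5 (-0.01 ± 0.26, adjusted p = 0.986), Rfxap (-0.53 ± 0.26, adjusted p = 0.0646), Nfya (0.35), Nfyb (-0.35) and Creb1 (0.05) were not called per the authors' deposited table.

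Upstream of Ciita, regulators of its myeloid and B cell promoters went both ways. Spi1, the PU.1 factor of myeloid and B cells, was lower in iBAT at -2.06 ± 0.26, and Irf8, a factor of dendritic cells and macrophages, at -1.40 ± 0.16, per the authors' deposited table. Irf4, which brown adipocytes use as well as immune cells, was higher at 2.39 ± 0.45, and so was the repressor gene Bcl6 at 1.78 ± 0.27, per the authors' deposited table. Prdm1, which encodes a repressor of Ciita in plasma cells, was not called (0.17 ± 0.41) per the authors' deposited table.

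Interferon-gamma, the main inducer of Ciita outside professional presenting cells, had few counts. Its gene Ifng had a base mean of 3.1 and was not called (-0.49 ± 1.02, adjusted p = 0.400) per the authors' deposited table. Its receptor genes Ifngr1 (-0.68 ± 0.20) and Ifngr2 (-0.49 ± 0.19) and its target factor gene Irf1 (-0.55 ± 0.12) were lower in iBAT, while Jak1 (-0.11), Jak2 (-0.26) and Socs1 (-0.47) were not called, per the authors' deposited table. The call of Ifngr2 was lost under 4 of the 6 alternatives. Among 11 genes induced by interferon-gamma, 5 were lower, beside 27.1% of all genes, and 6 were not called. The median of the 11 was -0.40 per the authors' deposited table. Gbp2, a guanylate-binding protein of host defence, was lower at -0.85 ± 0.16 and the T cell chemokine gene Cxcl9 at -0.76 ± 0.20, per the authors' deposited table. Ido1, a tryptophan-degrading enzyme, stood apart at -5.24 ± 1.16 per the authors' deposited table. Gbp3 (0.01), Gbp7 (-0.01) and Igtp (-0.01) had fold changes near 0 per the authors' deposited table.

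Costimulators give the second signal beside class II. Of 7, 4 were lower in iBAT, beside 27.1% of all genes, with 1 higher and 2 not called per the authors' deposited table. Cd80 (-2.39 ± 0.61), Icosl (-1.46 ± 0.56), Cd86 (-1.39 ± 0.36) and Cd40 (-1.28 ± 0.31) were lower per the authors' deposited table. Cd274, which encodes the inhibitory ligand PD-L1, was higher in iBAT at 3.11 ± 0.22 per the authors' deposited table. On the CD4 T cell side 3 of 8 genes were lower and 5 not called (median -0.51), beside 27.1% of all genes called lower, with Cd3g (-1.97 ± 0.40), Icos (-1.06 ± 0.48) and Cd28 (-1.04 ± 0.35) lower per the authors' deposited table. The call of Icos was lost under 4 of the 6 alternatives, which left 2 of the 8 lower. Cd4 itself was not called (-0.52 ± 0.37, adjusted p = 0.209), nor was Lag3, an inhibitory receptor that binds class II (0.24 ± 0.34, adjusted p = 0.564), per the authors' deposited table. Cd74 is also a receptor for the cytokine MIF. Its co-receptor genes Cd44 (-1.04 ± 0.36) and Cxcr4 (-1.08 ± 0.32) were lower in iBAT, Mif was not called (0.07 ± 0.22), and its relative Ddt was higher (1.05 ± 0.30), per the authors' deposited table.

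MHC class I presentation, which displays peptides made inside the cell to CD8+ T cells, had a smaller median difference. Of 14 genes 11 were lower, beside 27.1% of all genes, and 3 were not called. Their median was -1.08 per the authors' deposited table, against -2.19 for the 7 class II genes. The class I heavy chain genes H2-T23 (-1.75 ± 0.21), H2-D1 (-1.56 ± 0.19) and H2-K1 (-1.44 ± 0.17) and the light chain gene B2m (-1.69 ± 0.14) were lower per the authors' deposited table. Nlrc5, the coactivator of class I genes and a relative of Ciita, stood at -1.07 ± 0.21, close to the -1.13 of Ciita, per the authors' deposited table. The difference between the class I and class II lists was not tested.

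**Figure D3:**
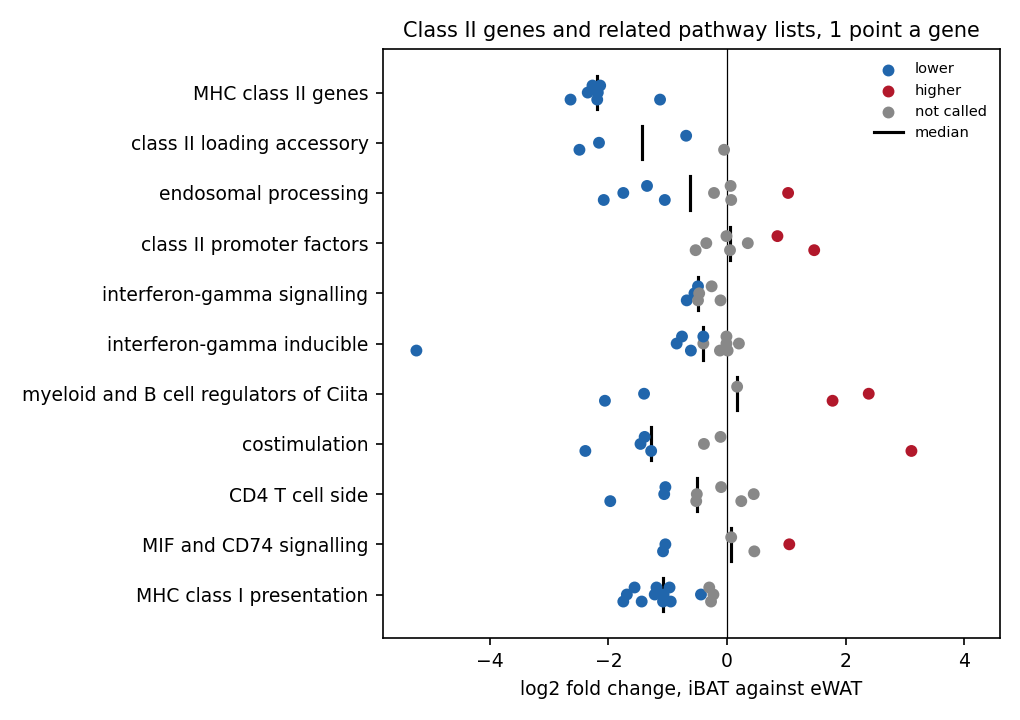
Log2 fold change of iBAT against eWAT (x axis) for the 7 MHC class II genes and 10 pathway lists, 1 point per gene coloured by call, with a bar at each list's median. The class II genes have a median of -2.19, the promoter-bound factors 0.05 and class I presentation -1.08.

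In the genome, 5 of the 7 genes lie in 1 stretch of chromosome 17, from H2-DMa to H2-Eb1, together with 7 other RefSeq genes of which 6 were measured. Of those 6, 4 were lower in iBAT and 2 not called per the authors' deposited table. Among the 4 are the class II genes H2-DMb2 and H2-Ob, and the call of H2-Ob was lost under 5 of the 6 alternatives. The immunoproteasome genes Psmb8 (-1.22 ± 0.23) and Psmb9 (-1.19 ± 0.27) were lower, while the peptide transporter genes Tap1 (-0.27 ± 0.17) and Tap2 (-0.23 ± 0.21), which lie beside them, were not called per the authors' deposited table. Among the 10 genes on each side, 12 were measured, with 5 lower, 3 higher and 4 not called per the authors' deposited table. The shares over all genes were 27.1% lower and 20.9% higher. On 1 side Col11a2, a collagen gene (2.58 ± 0.30), and Rxrb, a nuclear receptor gene (0.97 ± 0.17), were higher in iBAT per the authors' deposited table. H2-Ke6 (0.73 ± 0.28) on that side was also higher, with its call lost under 3 of the 6 alternatives. Slc39a7 (-0.60 ± 0.20) and H2-Oa (-2.49 ± 0.63), on the same side, were lower per the authors' deposited table. The call of Slc39a7 was lost under 2 of the 6 alternatives. On the other side the butyrophilin-like gene Btnl2 (-2.38 ± 0.44) and the neighbouring BC051142 (-2.44 ± 0.68) were lower, with base means of 54.8 and 36.8 per the authors' deposited table. Btnl1, on that side, was also called lower (-2.39 ± 1.40) from a base mean of 5.5, a call lost under 4 of the 6 alternatives.

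**Figure D4:**
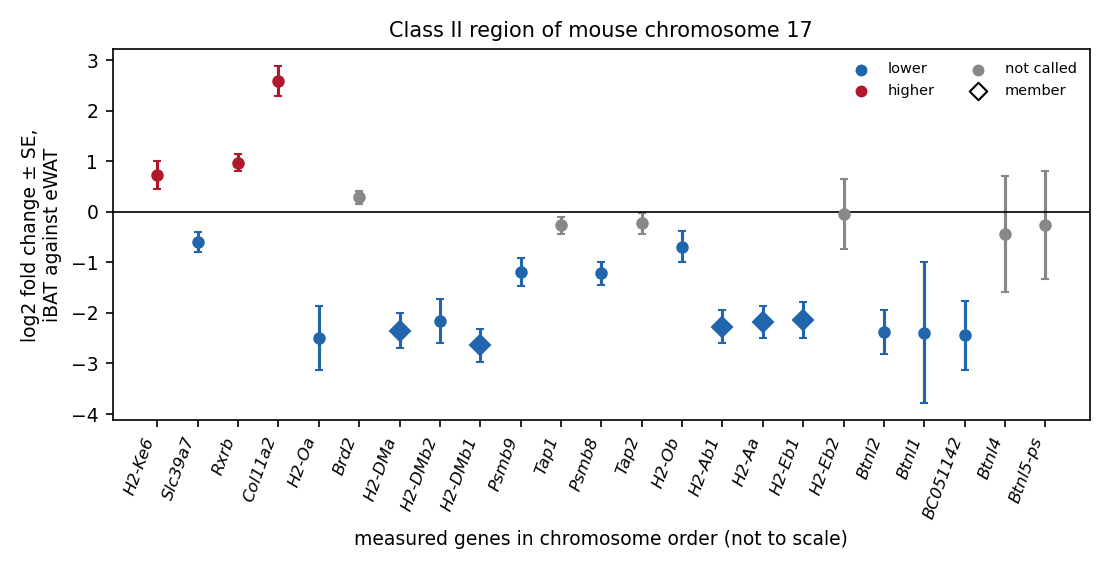
Log2 fold change of iBAT against eWAT ± SE (y axis) of measured genes in their order on chromosome 17 (x axis, not to scale), with the class II members as diamonds and points coloured by call. The 5 members lie between -2.64 and -2.14, with Tap1 at -0.27 and Tap2 at -0.23 between them.

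General leukocyte markers and most macrophage markers were lower in iBAT beside the 7 genes. All 5 general leukocyte markers were lower, beside 27.1% of all genes. They had a median of -1.94 and a range from -2.53 (Tyrobp) to -1.23 (Ptprc, CD45) per the authors' deposited table. Macrophage markers were lower in 9 of 10 cases with a median of -1.72, among them the complement gene C1qa (-2.56 ± 0.31), its partner C1qb (-2.39 ± 0.31), the lysozyme gene Lyz2 (-2.36 ± 0.27) and the lysosomal gene Cd68 (-1.95 ± 0.29), per the authors' deposited table. Fcgr1 was the macrophage marker not called (-0.67 ± 0.44, adjusted p = 0.153) per the authors' deposited table. Their part in the class II values was not tested.

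Dendritic cell markers went both ways, with 6 of 10 lower, 1 higher and 3 not called and a median of -1.19 per the authors' deposited table. The shares over all genes were 27.1% lower and 20.9% higher. Batf3 (-3.81 ± 0.86), Itgax (CD11c, -2.58 ± 0.26), Clec10a (-2.28 ± 0.19) and Cd209a (-2.03 ± 0.26) were lower per the authors' deposited table. Ccr7 (-1.33 ± 0.66) and Flt3 (-1.06 ± 0.44) were also lower, with calls lost under 4 and 3 of the 6 alternatives. Clec9a (-0.31 ± 0.25, adjusted p = 0.284) and Xcr1 (-0.66 ± 0.31, adjusted p = 0.0501) were among those not called per the authors' deposited table. Zbtb46, which endothelial cells also use, was higher in iBAT at 0.97 ± 0.15 per the authors' deposited table. That call was lost only where a minimum size was required.

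B cell markers were lower in 5 of 7 cases (median -1.51), with base means from 14.6 to 109 and with Blk (-2.51 ± 0.75), Cd79b (-1.84 ± 0.47) and Cd79a (-1.73 ± 0.41) among them, per the authors' deposited table. Plasma cell markers were lower in 3 of 3 cases, with base means from 20.1 to 642 and Jchain at -4.29 ± 0.37, per the authors' deposited table. Of 4 monocyte markers, Plac8 (-4.16 ± 0.59) and the chemokine receptor gene Ccr2 (-1.47 ± 0.22) were lower and 2 were not called per the authors' deposited table. The share of all genes called lower was 27.1%. Of 4 genes of natural killer and innate lymphoid cells 3 were lower, Gata3 (-2.51 ± 0.82), Ncr1 (-2.47 ± 0.55) and Klrb1c (-1.92 ± 0.69), per the authors' deposited table. The part of these cells in the class II values was not tested either.

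Most markers of cells outside the immune system were called lower in iBAT, and 1 endothelial marker was called higher. Epithelial and mesothelial markers were lower in iBAT in 6 of 6 cases, with a median of -11.63, and fibroblast and progenitor markers in 5 of 5, with a median of -1.43, per the authors' deposited table. Among all genes 27.1% were called lower and 20.9% higher. Endothelial markers gave 1 lower (Pecam1, -0.36), 1 higher (Kdr, 1.11) and 2 not called per the authors' deposited table. The call of Pecam1 was lost under 4 of the 6 alternatives. Of 5 adipocyte markers, Plin1 (-3.16 ± 0.58), Adipoq (-1.48 ± 0.28) and Fabp4 (-0.74 ± 0.34) were lower, while Lipe (-0.02) and Pparg (0.41) were not called, per the authors' deposited table. The call of Fabp4 was lost under 5 of the 6 alternatives. How far any of these cells contributes to the class II values was not tested.

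**Figure D5:**
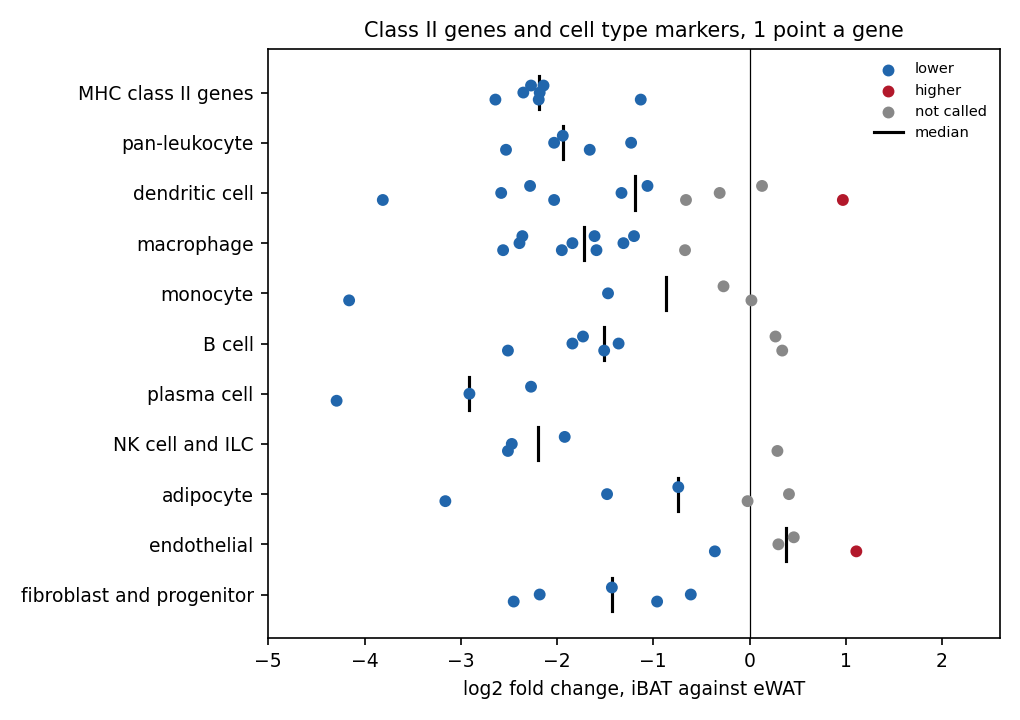
Log2 fold change of iBAT against eWAT (x axis) for the 7 MHC class II genes and 10 lists of cell type markers, 1 point per gene coloured by call, with a bar at each list's median; the epithelial and mesothelial list (median -11.63) is not drawn. General leukocyte markers have a median of -1.94, macrophage markers -1.72, dendritic cell markers -1.19 and endothelial markers 0.38.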

How the data were processed

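RNA of the 8 mRNA libraries went through a stranded kit for total RNA, per the labels' protocols. Tools and builds listed in the submitters' processing notes, with no role given, are DESeq, DESeq2, kallisto 0.45.0, mm10 and GRCm38. The base mean is a signal the authors deposited: normalized counts, scaled by size factors, averaged across samples. The authors deposited log2 fold changes, each with a standard error on the log2 scale, and p-values and adjusted p-values. Benjamini-Hochberg adjustment of those p-values returned the adjusted ones within 2.4e-07. For 10.7% of genes the p-value matched, within 0.01 in log10, one computed from fold change and SE. No source used here states which test gave the p-values or whether the fold changes were shrunken, so folds, SEs and intervals are those of the deposited values. Depth per library is unknown.

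Gene IDs were paired with symbols for 18758 of 18947 genes. Folds are powers of the log2 fold change, and 95% intervals use a normal distribution with the deposited SE (Python 3.11.15, scipy 1.17.1). Lists are described by counts and medians, beside the 27.1% of all genes called lower and 20.9% called higher, with no test of a list. The members and lists were chosen with earlier results of these data known. All 7 members are named. From most lists the text names up to 4 called genes with the largest fold changes and those called against the list. All accessory, promoter-factor, interferon-signalling and Ciita-regulator genes are also named, with some genes of the class II region. No gene of the epithelial and mesothelial list or of the fibroblast and progenitor list is named. Genes outside that rule were chosen after their values were seen. Ifi30 and Gbp5 of the lists were not analysed here. Some genes planned for the lists were taken out of them and are not reported here. The adjustment code was tested on simulated data. The 6 alternatives tried were p-values from fold change over SE, centring, a stricter threshold, a minimum size, a minimum base mean and another adjustment.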

Additional observations from a re-analysis of the deposited data

How the results depend on the processing

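All 7 class II genes kept their direction and their call under each of the 6 alternatives, which together left none of them called higher. Each alternative used the same deposited fold changes, shifted in centring only by the median of all genes, so these directions could not change. The members' deposited values already passed the limits of p, size and base mean, so those alternatives could not end a call. Their median log2 fold change stayed at -2.19, or -2.10 after centring on the median of all genes. The largest adjusted p of a member over the alternatives was 3.30e-08 (Cd74), after centring, and the smallest 1.03e-15 (H2-DMb1). For the members the p-value from fold change over SE was 2.00 (Ciita) to 6.76 (H2-DMb1) times the deposited one. Centring turned the balance of all genes from 5135 lower and 3965 higher to 4008 lower and 4246 higher. Of 252 list counts under alternatives 241 stayed within 1.5 times and 11 did not. The 241 include counts that were 0 both times and falls such as that of lower dendritic cell calls from 6 to 4. With a size of at least 1 required, lower calls numbered 0 for interferon-gamma signalling, 1 for interferon-gamma inducible genes, 3 for fibroblast markers and 0 for endothelial markers, and higher calls 1 for promoter factors and 0 for dendritic cell markers; fewer genes can pass that rule. Endothelial lower calls were also 0 after centring (2 higher), at an adjusted p under 0.01 and with Benjamini-Yekutieli adjustment, which left 1 lower call for MIF and CD74 signalling. No paired analysis was possible because the table gives no values per library, and for the same reason no library could be left out.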

Other observations

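Among all genes with an H2- symbol, class I and class II together, 33 were measured, and 17 were lower in iBAT, 3 higher and 13 not called per the authors' deposited table. Outside the class II genes 9 of 24 were lower and 3 higher, beside 27.1% and 20.9% of all genes. The median of the 24 was -0.46 per the authors' deposited table. H2-Q10, which encodes a secreted class I molecule known from liver, was higher in iBAT at 4.09 ± 0.19 (adjusted p = 6.76e-102) with a base mean of 3035 per the authors' deposited table. The others higher in iBAT were H2-Ke6 (0.73 ± 0.28), which is not an MHC molecule but an enzyme gene of the same region, and H2-T24 (0.73 ± 0.28) per the authors' deposited table, and each of these calls was lost under 3 of the 6 alternatives. Class I genes share long stretches of sequence, and how reads were divided among them is not stated. These genes were chosen after their values were seen.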
